A study of Mus musculus with 12 samples.

Results

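Transcripts of 10 genes for the granule proteins of neutrophils and their progenitors were followed in sorted myeloid cells of the mouse bone marrow. The genes were chosen by name and matched by symbol, and all 10 were found among the 56953 genes of the deposited tables. They were Prtn3, Elane, Mpo and Ctsg for primary granules (4 genes), Ltf, Camp, Ngp, Lcn2 and Mmp8 for secondary granules (5 genes), and Mmp9 for tertiary granules (1 gene). In the macrophage comparison the primary granule genes were lower in all 3 eYFP+ libraries than in any eYFP- library, whereas among the eYFP- libraries Ltf, Camp, Ngp and Lcn2 of the secondary class were high in replicate 2 alone, and Mmp8 was low in all macrophages.

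Polyadenylated RNA was sequenced from 4 groups of 3 libraries, all from the bone marrow of 8-week-old female C57BL/6J mice. The eYFP+ macrophages carried a fluorescent label that Rank-driven Cre recombinase had switched on in Rank cre/+;R26.eYFP fl/+ mice, and the study uses it as a mark of embryonic origin. The eYFP- macrophages lacked the label and stand for the adult, stem cell-derived macrophages of the same gate, so a macrophage of embryonic origin that escaped recombination would also be counted there. Both macrophage groups were sorted as Gr1-low cells with F4/80, CD206 and VCAM1 on their surface after enrichment on F4/80 beads. The other groups were CD11b+ monocytes with high (Ly6Chi) or low (Ly6Clo) surface Ly6C, which the study's gating likewise took from Gr1-low cells. The mouse genotype is given by the study's methods and not by the sample labels, and it is not stated whether replicates were separate mice, so p-values measure only the spread between these libraries, which may be technical. The deposited read counts were divided by the size factor of each library (normalized counts). Totals ranged from 26390927 to 48618187 counts per library, and the limit that a count of 0 allows was 3 counts, which covers counting error only. Summed over 10 macrophage markers, TPM (counts corrected for gene length and scaled to a common total) reached 46297 to 50457 in eYFP- macrophages and 54453 to 60942 in eYFP+ macrophages, but 531 to 3053 in the monocyte libraries. Every eYFP- library lay below every eYFP+ library for this sum.

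Neutrophils store their antimicrobial proteins in granules that are filled in sequence as the cell matures. Primary, or azurophil, granules form at the promyelocyte stage and hold myeloperoxidase and serine proteases, which are also made in granulocyte-monocyte progenitors and in young monocytes. Secondary, or specific, granules form later, at the myelocyte stage, and tertiary, or gelatinase, granules follow. Each granule protein gene is therefore transcribed within a window of maturation, and mature neutrophils carry primary granule proteins while making little of their RNA. PU.1 and members of the C/EBP family are known regulators of both classes, and C/EBP epsilon is required for the secondary class.

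The 250 bases before the start site of each gene were read from RefSeq promoters of the GRCm38.p6 build, which held 9 of the 10 genes and no entry for Mmp9. The counts themselves were made on GRCm39. Promoters of a pair of primary and a pair of secondary granule genes are shown because the classes differ in expression below. Capitals mark matches on either strand to GAGGAA, a core of PU.1 sites, and to TTNNGNAA, a degenerate C/EBP core (N is any base).
Elane, chr10:79886062-79886311, plus strand: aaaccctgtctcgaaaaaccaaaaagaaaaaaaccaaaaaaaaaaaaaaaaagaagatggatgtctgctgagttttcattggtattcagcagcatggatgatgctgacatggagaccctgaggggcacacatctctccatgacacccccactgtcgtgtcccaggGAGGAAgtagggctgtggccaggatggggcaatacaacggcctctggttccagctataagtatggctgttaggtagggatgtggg
Mpo, chr11:87793534-87793783, plus strand: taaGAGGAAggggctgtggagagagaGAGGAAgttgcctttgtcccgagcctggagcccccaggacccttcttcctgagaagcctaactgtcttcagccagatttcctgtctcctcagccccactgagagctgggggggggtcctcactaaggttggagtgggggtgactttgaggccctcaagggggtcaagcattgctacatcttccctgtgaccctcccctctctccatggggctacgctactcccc
Ltf, chr9:111019042-111019291, plus strand: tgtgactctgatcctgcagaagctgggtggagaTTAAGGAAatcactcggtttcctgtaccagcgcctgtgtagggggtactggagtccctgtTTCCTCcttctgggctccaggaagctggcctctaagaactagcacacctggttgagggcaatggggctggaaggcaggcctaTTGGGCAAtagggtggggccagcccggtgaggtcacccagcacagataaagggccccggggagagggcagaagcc
Ngp, chr9:110419558-110419807, plus strand: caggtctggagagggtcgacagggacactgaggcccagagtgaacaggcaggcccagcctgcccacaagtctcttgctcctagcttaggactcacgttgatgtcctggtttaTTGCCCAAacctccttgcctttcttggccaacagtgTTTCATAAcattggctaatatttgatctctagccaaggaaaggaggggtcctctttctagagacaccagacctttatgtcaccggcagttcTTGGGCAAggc
The 4 primary granule promoters each held GAGGAA, as did 3 of 5 secondary granule promoters, while 23.3% of all 32851 promoters of the same length held it. The C/EBP letters were in 0 of 4 primary and in 4 of 5 secondary granule promoters, against 36.8% of all promoters, and the Camp promoter held neither motif. The MYB core AACTG was in 6 of 9 member promoters and in 39.1% of all promoters. The RUNX core TGTGGT was in the Ctsg promoter alone among the 9, against 4614 of all 32851. A match of letters is not a bound site, and the missing matches say only that these letters were not in this window.

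Primary granule genes were abundant in eYFP- macrophages and Ly6Chi monocytes and low in eYFP+ macrophages and Ly6Clo monocytes. Mpo, the peroxidase that makes hypochlorous acid, stood at 7443, 20146 and 27039 normalized counts in eYFP- macrophage replicates 1, 2 and 3 and at 396, 1809 and 226 in eYFP+ macrophages. In monocytes its normalized counts were 24361, 15547 and 15214 in Ly6Chi and 480, 131 and 463 in Ly6Clo replicates. The eYFP- and Ly6Chi libraries overlapped, and both groups lay above every eYFP+ and Ly6Clo library. Elane, neutrophil elastase, stood at 236, 1599 and 2081 normalized counts in eYFP- macrophages and at 0, 79.1 and 62.2 in eYFP+ macrophages. Its normalized counts were 16084, 9553 and 11099 in Ly6Chi and 7.64, 0 and 80.3 in Ly6Clo monocytes. Elane was thus higher in each Ly6Chi library than in any other, and eYFP- macrophages took a middle level.

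Prtn3, proteinase 3, lies directly beside Elane on chromosome 10. It had 704, 1316 and 1776 normalized counts in eYFP- macrophages, 64.8, 160 and 40.7 in eYFP+ macrophages, 4717, 3099 and 3438 in Ly6Chi and 94.2, 81.7 and 78.2 in Ly6Clo monocytes. The order of its 4 groups was that of Elane, with Ly6Clo and eYFP+ libraries overlapping at the bottom. Ctsg, cathepsin G, had 475, 1428 and 1684 normalized counts in eYFP- macrophages, 57.6, 192 and 7.40 in eYFP+ macrophages, 1046, 668 and 610 in Ly6Chi and 53.5, 0 and 98.5 in Ly6Clo monocytes. For this gene alone among the 10, the mean normalized count of eYFP- macrophages was the highest of the 4 groups. In the GENCODE M21 annotation Prtn3 overlaps Plppr3 and Mpo overlaps Gm11505, both on the opposite strand. Whether the counting used strand is not stated, so the values of these 2 members carry that uncertainty.

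**Figure D1:**
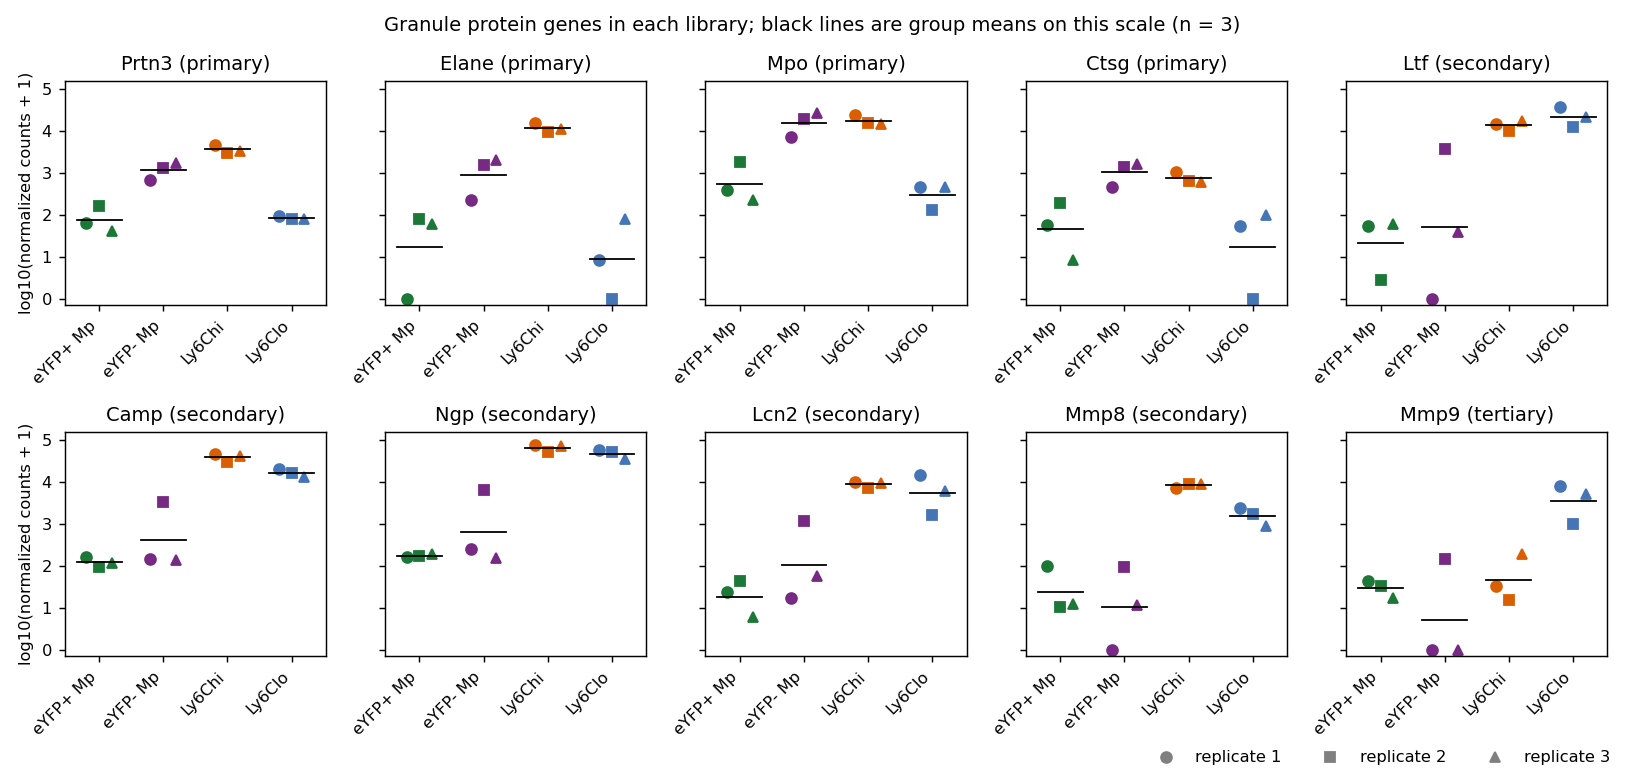
Normalized counts of the 10 granule protein genes, as log10(value + 1), in the 3 libraries of each of the 4 groups; symbols stand for replicate numbers, and black lines are group means on this scale. Primary granule genes are high in Ly6Chi monocytes and in all 3 eYFP- libraries, while for each of the 5 secondary granule genes eYFP- replicate 2 (square) lies above replicates 1 and 3.

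Secondary granule genes followed another order. They were highest in both monocyte groups and low in eYFP+ macrophages, and in eYFP- macrophages all but Mmp8 were high in replicate 2 only. Ngp, neutrophilic granule protein, had 258, 6609 and 160 normalized counts in eYFP- replicates 1, 2 and 3 and 167, 172 and 189 in eYFP+ macrophages. In monocytes it had 78269, 52620 and 73186 normalized counts in Ly6Chi and 59744, 53088 and 35637 in Ly6Clo replicates. The eYFP- replicates 1 and 3 lay beside the eYFP+ libraries, and replicate 2 lay between macrophages and monocytes. Camp, the precursor of the antimicrobial peptide cathelicidin, gave 150, 3455 and 136 normalized counts in eYFP- and 168, 94.4 and 118 in eYFP+ macrophages. Its monocyte values were 47834, 29951 and 42727 normalized counts in Ly6Chi and 21114, 16447 and 13654 in Ly6Clo. As for Ngp, eYFP- replicate 2 stood far above the other 5 macrophage libraries.

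Ltf, lactoferrin, which binds iron, had 0, 3703 and 39.3 normalized counts in eYFP- macrophages and 53.5, 1.91 and 60.0 in eYFP+ macrophages. It reached 15077, 10044 and 17397 normalized counts in Ly6Chi and 38705, 12719 and 22046 in Ly6Clo monocytes, which overlapped. Lcn2, lipocalin 2, which binds the iron carriers of bacteria, had 16.4, 1184 and 57.7 normalized counts in eYFP- and 22.6, 43.9 and 5.18 in eYFP+ macrophages. Its Ly6Chi values of 10341, 7285 and 9495 normalized counts fell within the wide Ly6Clo range of 15242, 1680 and 6240. Ly6Clo replicate 2, lowest of its group for Ltf, Lcn2 and Mmp9, was also the shallowest library, and the part of depth was not tested. Mmp8, the neutrophil collagenase, was low in macrophages, with 0, 94.5 and 10.9 normalized counts in eYFP- and 97.8, 9.54 and 11.8 in eYFP+ libraries. It had 7243, 9323 and 9007 normalized counts in Ly6Chi and 2484, 1744 and 889 in Ly6Clo monocytes, which did not overlap. Here eYFP+ replicate 1 was as high as eYFP- replicate 2, unlike in the other secondary granule genes.

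Mmp9, gelatinase B, the tertiary granule member, was high in Ly6Clo monocytes alone. It had 8069, 990 and 5330 normalized counts there, against 32.9, 14.6 and 194 in Ly6Chi monocytes. In macrophages it had 0, 147 and 0 normalized counts in eYFP- and 43.2, 32.4 and 16.3 in eYFP+ libraries. Every eYFP+ library thus had Mmp9 reads, while eYFP- replicates 1 and 3 had none.

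Compared per length, in TPM, the leading gene differed by group. In Ly6Chi monocytes Ngp (2684 ± 532 TPM, SD, n = 3) and Camp (2555 ± 582) were level within their spread, followed by Elane at 600 ± 167 and Lcn2 at 476 ± 82.4. In Ly6Clo monocytes Ngp (1967 ± 555 TPM) and Camp (1097 ± 296) again led, and no primary granule gene had a mean above the 6.42 ± 3.69 TPM of Mpo. In eYFP- macrophages Mpo led with 355 ± 200 TPM. The next means, 110 ± 176 for Ngp and 94.1 ± 147 for Camp, were carried by replicate 2, and Elane, Prtn3 and Ctsg lay close together at 71.8 ± 52.9, 65.7 ± 29.6 and 64.2 ± 36.1. In eYFP+ macrophages the highest mean, Mpo at 15.3 ± 16.8 TPM, was not distinct from Camp at 8.44 ± 1.84 or Ngp at 7.41 ± 1.12. The 10 genes together took 0.566 to 0.857% of all TPM in Ly6Chi monocytes, 0.310 to 0.572% in Ly6Clo monocytes and 0.00297 to 0.00744% in eYFP+ macrophages. In eYFP- replicates 1, 2 and 3 they took 0.0217, 0.141 and 0.0820%.

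Embryonic and adult-derived macrophages were compared first, with DESeq2 over all genes and Benjamini-Hochberg adjusted p. Primary granule transcripts were lower in eYFP+ macrophages. Prtn3 fell by 3.84 on the log2 scale (SE 0.51, adjusted p = 5.87e-11), Mpo fell by 4.49 (SE 0.73, adjusted p = 4.82e-07) and Ctsg fell by 3.81 (SE 1.07, adjusted p = 0.0237). Elane had the widest spread of the 4, with a log2 fold change of -4.79 ± 1.70 and an adjusted p of 0.149, although its libraries did not overlap. No eYFP+ library reached the lowest eYFP- library for any of the 4 genes, and 8.5% of all tested genes were lower without overlap in this way. In bulk RNA, fewer cells that express a gene and less RNA per cell cannot be told apart.

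Among secondary granule genes, Camp fell by 3.30 (SE 0.88, adjusted p = 0.0135), Ngp fell by 3.73 (SE 0.92, adjusted p = 0.0052) and Lcn2 fell by 4.14 (SE 1.10, adjusted p = 0.0132). Ltf had a log2 fold change of -5.02 ± 1.87 (adjusted p = 0.197), Mmp8 one of 0.17 ± 1.38 and Mmp9 one of -0.68 ± 1.90, the last pair with an adjusted p of 1. In all, 6 of 10 genes were lower in eYFP+ macrophages and 0 higher (0 higher at an unadjusted p under 0.05 too), against 1.88% and 0.153% of the 21567 genes tested. The median log2 fold change was -4.16 over the primary and -3.73 over the secondary granule genes, beside 0.05 over all tested genes. For none of the 5 secondary granule genes were the libraries of the macrophage groups apart, because eYFP- replicates 1 and 3 fell in or beside the eYFP+ range.

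Without eYFP- replicate 2 the classes parted. Prtn3 kept a log2 fold change of -3.81 ± 0.59 (adjusted p = 1.56e-07) and Mpo one of -4.41 ± 0.84 (adjusted p = 6.05e-05), and Elane and Ctsg moved to -4.62 and -3.66 with adjusted p of 0.276 and 0.0848. Camp moved to -0.18 ± 0.39, Ngp to -0.25 ± 0.38 and Lcn2 to -0.65 ± 0.90, with adjusted p of 0.994, 0.98 and 0.969, and Ltf turned to 0.96 ± 1.19. In that DESeq2 fit 0 of 5 secondary granule genes passed and 1 had an unadjusted p under 0.05 (Mmp8, higher in eYFP+ macrophages at 2.85 ± 1.06), against 2 of 4 primary granule genes that passed. Over all 18878 genes tested there, 2.8% were called in either direction and 2602 had an unadjusted p under 0.05. Mmp9 was called higher in eYFP+ macrophages there (adjusted p = 0.00222), since the remaining eYFP- libraries had 0 counts. Against the counting limit of those libraries, which covers counting error only, the eYFP+ mean of 30.6 ± 13.6 normalized counts was 11.7-fold higher. Leaving out eYFP+ replicate 3 also brought the count of called genes down, to 3 (Prtn3, Mpo and Ngp). Of 6 fits without 1 library, the Ctsg call was kept in 2 (adjusted p up to 0.401), the Camp and Lcn2 calls in 3 each and the Ngp call in 4. Elane passed without eYFP+ replicate 1, and Ltf without eYFP- replicate 1. With edgeR, Prtn3 was the only 1 of the 10 to pass.

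**Figure D2:**
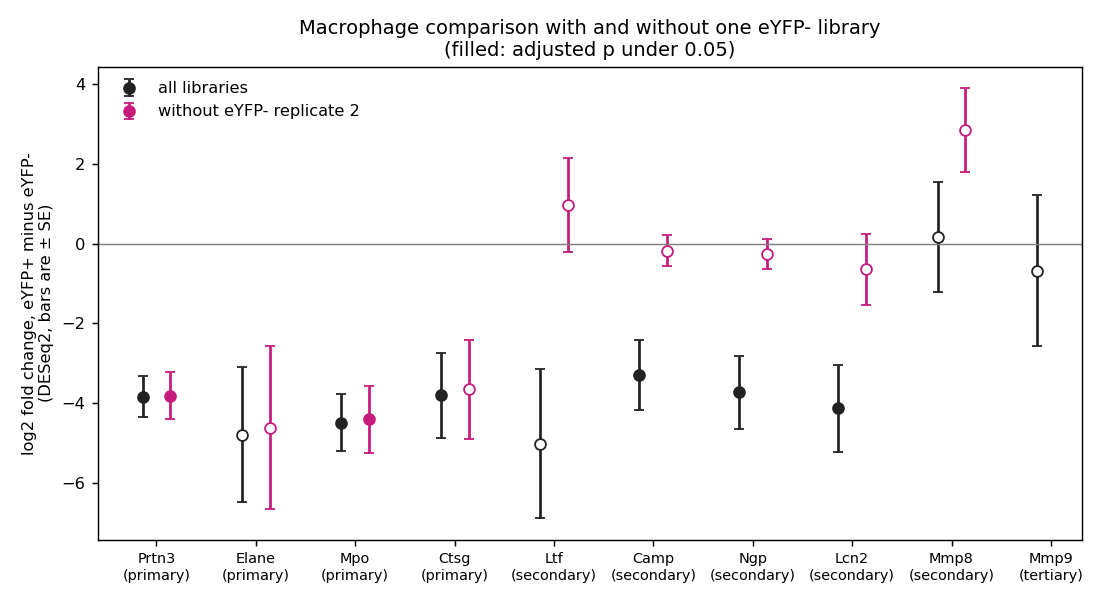
DESeq2 log2 fold change, eYFP+ minus eYFP- macrophages, with bars of ± SE, for all 12 libraries (black) and without eYFP- replicate 2 (magenta); filled symbols have an adjusted p under 0.05, and Mmp9 is not drawn in the second fit because the remaining eYFP- libraries had 0 counts. Without that library the primary granule genes keep values between -3.66 (Ctsg) and -4.62 (Elane), while Camp, Ngp and Lcn2 move to between -0.18 and -0.65.

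The 3 eYFP- libraries were therefore set apart gene by gene. In replicate 2, Lcn2 was 31.9-fold, Ngp 31.6-fold and Camp 24.2-fold above the mean of replicates 1 and 3. With counts of 0 set to the counting limit, which covers counting error only, Ltf was 176-fold, Mmp9 56.1-fold and Mmp8 13.9-fold above that mean. The primary granule genes in the same library were 1.06-fold to 1.38-fold above that mean, and replicate 3 was highest for each of the 4. A value of at least 10 times the mean of the other eYFP- libraries was met by 6 of 10 members and by 0.478% of all tested genes. Set against the Ly6Chi mean, replicate 2 held 26.1% of Ltf, 13.1% of Lcn2, 9.72% of Ngp, 8.60% of Camp and 1.11% of Mmp8. In replicates 1 and 3 these 5 genes stood at 0 to 0.639% of it. Mmp9 in replicate 2 was at 183% of the Ly6Chi mean and at 3.07% of the Ly6Clo mean.

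Primary granule transcripts in eYFP- macrophages were not a fixed fraction of those in Ly6Chi monocytes. In replicates 1, 2 and 3, Mpo was at 40.5, 110 and 147% of the Ly6Chi mean and Ctsg at 61.3, 184 and 217%. Prtn3 was at 18.8, 35.1 and 47.3% and Elane at 1.92, 13.1 and 17.0%. Within a library, the TPM ratio of Elane to Mpo was 1.72 to 2.04 in Ly6Chi monocytes and 0.0884 to 0.222 in eYFP- macrophages. The ratio of Prtn3 to Mpo was 0.520 to 0.606 against 0.175 to 0.254, and that of Ctsg to Mpo 0.110 to 0.118 against 0.171 to 0.195. For all 3 ratios the libraries of both groups did not overlap, lower in eYFP- macrophages for Elane and Prtn3 and higher for Ctsg. The TPM ratio to Mpo was likewise without overlap, in either direction, for 30.7% of all tested genes.

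**Figure D3:**
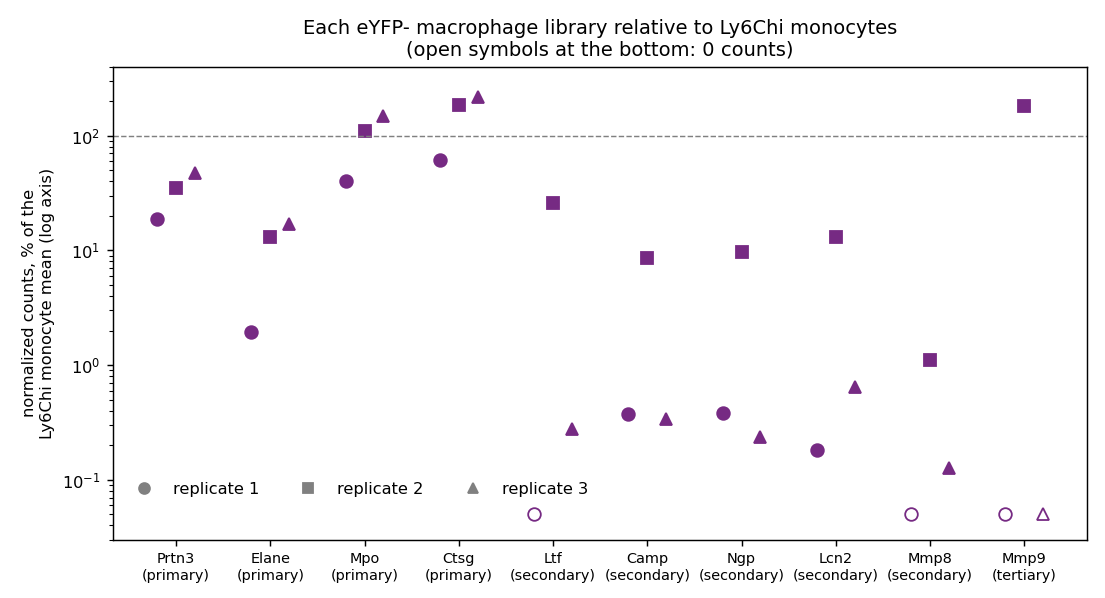
Normalized counts in each eYFP- macrophage library as a percentage of the Ly6Chi monocyte mean (log axis, dashed line at 100%); open symbols at the bottom are libraries with 0 counts. Primary granule genes run from 1.92 to 217% with replicate 1 lowest, while the 5 secondary granule genes stand at 1.11 to 26.1% in replicate 2 and at 0.639% or less in the other replicates.

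Markers of other cells moved with these values. The 14 neutrophil markers summed to 87.9, 1477 and 152 TPM in eYFP- replicates 1, 2 and 3 and to 137 to 222 TPM in eYFP+ macrophages, and 11 of 14 were highest in replicate 2 among the eYFP- libraries, as were 37.6% of all tested genes. Of those, S100a8, S100a9, Cxcr2, Cd177 and Wfdc21 were at least 10 times above the mean of replicates 1 and 3. Ly6g, the defining surface marker of neutrophils, had 10.04, 26.8 and 0 normalized counts in the eYFP- libraries and 0, 0 and 6.66 in the eYFP+ libraries. Its replicate 2 value was the highest of the macrophage libraries and stood at 42.8% of the Ly6Chi mean and 4.98% of the Ly6Clo mean. Stfa3 was at 0 in all 6 of them. In monocytes the neutrophil markers summed to 11739 to 17172 TPM in Ly6Chi and to 3813 to 11770 TPM in Ly6Clo libraries, with Ly6g at 44.9 to 81.4 and 407 to 791 normalized counts. By gene, 1 of 14 was called higher and 3 lower in Ly6Chi, against 3.66% and 4.96% of all tested genes. The median log2 fold change of the neutrophil markers, eYFP+ minus eYFP-, was -1.80 with all libraries and 0.07 without eYFP- replicate 2. The part of neutrophils in the secondary granule values, in either monocyte group or in eYFP- replicate 2, was not tested.

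The 11 stem and progenitor markers were mostly lower in eYFP+ than in eYFP- macrophages, as the primary granule genes were. They summed to 61.5, 134 and 134 TPM in eYFP- replicates 1, 2 and 3, to 3.70 to 12.8 TPM in eYFP+ macrophages, to 106 to 158 TPM in Ly6Chi and to 67.5 to 89.3 TPM in Ly6Clo monocytes. Lower in eYFP+ macrophages were 7 of 11, against 1.88% of all tested genes, and 5 of 11 without eYFP- replicate 2, with medians of -3.85 and -3.95. With edgeR 1 of the 11 passed. Against Ly6Chi monocytes, 5 of 11 were higher in eYFP- macrophages and 2 lower (median 1.51), beside 16.3% and 11.1% of all tested genes. Against Ly6Clo monocytes these counts were again 5 and 2 (median 1.77), beside 15.4% and 10.8%. With edgeR, 6 of the 11 passed against Ly6Chi and 2 against Ly6Clo. Between monocytes the summed level was higher in every Ly6Chi library than in any Ly6Clo library, while 1 of 11 genes was called higher and 1 lower in Ly6Chi, against 3.66% and 4.96% of all tested genes, with a median log2 fold change of -0.60. Cd34, a sialomucin of progenitors, fell by 4.58 (SE 0.67, adjusted p = 8.81e-09), from 1175, 1969.6 and 1983 normalized counts in eYFP- to 9.26, 152 and 54.0 in eYFP+ libraries. Flt3, a cytokine receptor of early progenitors, fell by 4.87 (SE 0.83, adjusted p = 2.24e-06), Mycn fell by 4.38 and Cebpe fell by 3.85. The 10 proliferation markers summed to 768, 409 and 516 TPM in eYFP- and to 127 to 250 TPM in eYFP+ macrophages. Of these, 5 of 10 were lower in eYFP+ macrophages, led by Ccnb2, Mcm5, Ccna2 and Birc5, against 1.88% of all tested genes. With edgeR 1 of these 10 passed. They summed to 177 to 224 TPM in Ly6Chi and to 132 to 166 TPM in Ly6Clo monocytes. In eYFP- macrophages 6 of 10 were higher than in Ly6Chi and 9 of 10 than in Ly6Clo monocytes, and 0 were lower. Of all tested genes 16.3% and 15.4% were higher. The part of progenitors or cycling cells in the primary granule values was not tested.

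**Figure D4:**
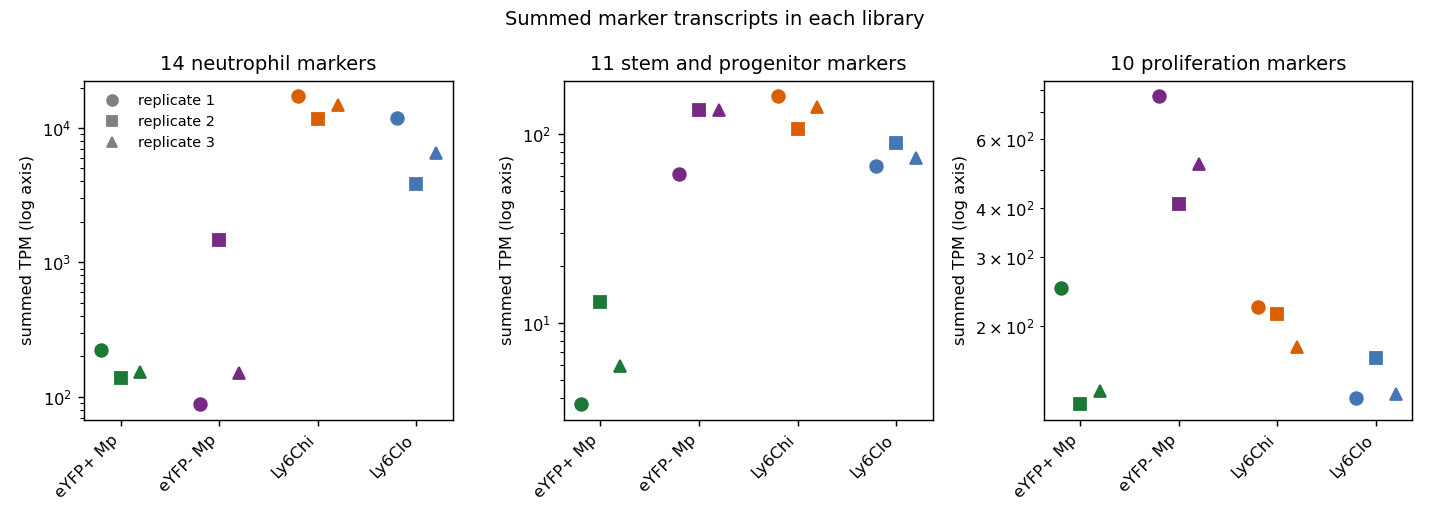
Summed TPM (log axis) of 14 neutrophil, 11 stem and progenitor and 10 proliferation markers in each library, with symbols for replicate numbers. Among eYFP- macrophages, neutrophil markers reach 1477 TPM in replicate 2 against 87.9 and 152 in the others, while progenitor markers are at 61.5 to 134 TPM in all 3, above the 3.70 to 12.8 TPM of eYFP+ macrophages.

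Other markers are given for completeness. Lower in eYFP+ macrophages were 3 of 10 erythroid markers (Klf1, Car1 and Slc4a1), whose sum was 22498 to 35444 TPM in eYFP- and 9026 to 14544 TPM in eYFP+ macrophages. Of 10 eosinophil and basophil markers 1 was lower, the basophil protease Mcpt8. These counts stand beside 1.88% of all tested genes lower in DESeq2, and in edgeR 0 genes of either list passed. The median log2 fold change of the eosinophil and basophil list was -4.07 with all libraries and -2.29 without eYFP- replicate 2. In the latter fit 4 of 10 genes had an adjusted p and 0 were called lower. Ccr3, an eotaxin receptor named after its values were seen, stood at 613 to 624 TPM in eYFP- and at 780 to 1167 TPM in eYFP+ macrophages, and the other 9 markers summed to 449 to 1794 TPM in eYFP- and to 12.2 to 20.4 TPM in eYFP+ macrophages. The 10 monocyte markers summed to 681 to 783 TPM in eYFP- and to 684 to 1125 TPM in eYFP+ macrophages. Their median log2 fold change was -0.92 with all libraries and 0.14 without eYFP- replicate 2. Among the eYFP- libraries 8 of 10 were highest in replicate 2, against the same 37.6% of all tested genes, and 1, the fibronectin gene Fn1, was at least 10 times above the mean of the others, with 6.39, 369 and 7.53 normalized counts in replicates 1, 2 and 3. The part of monocytes in the granule gene values was not tested. Of 10 macrophage markers 0 passed the DESeq2 test in either direction, as 0 did at an unadjusted p under 0.05 and 0 in edgeR.

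Monocytes were compared next. Primary granule genes were higher in Ly6Chi than in Ly6Clo monocytes, with log2 fold changes of 8.71 ± 1.70 for Elane (adjusted p = 1.9e-05), 5.68 ± 0.73 for Mpo (adjusted p = 1.26e-12), 5.47 ± 0.51 for Prtn3 (adjusted p = 2.74e-24) and 3.93 ± 1.07 for Ctsg (adjusted p = 0.00559). These were 4 of 4, against 3.66% of all tested genes higher in Ly6Chi. Of 5 secondary granule genes 0 passed in DESeq2, 0 had an unadjusted p under 0.05 and 0 passed in edgeR. In a DESeq2 fit on the 6 monocyte libraries alone Camp (adjusted p = 0.0338) and Mmp8 (adjusted p = 3.66e-05) did pass, and Mmp8 passed with limma on log2(TPM + 1) with or without the filter on low values (adjusted p of 0.012 and 0.0392). Camp and Mmp8 were higher without overlap, at 1.23 ± 0.88 (adjusted p = 0.453) and 2.32 ± 1.36 (adjusted p = 0.334), as were 16.2% of tested genes. The 95% intervals of Ngp (-1.35 to 2.26) and Lcn2 (-1.91 to 2.37) still allowed changes of either sign. Mmp9 went the opposite way and fell by 5.90 in Ly6Chi (SE 1.89, adjusted p = 0.0261), where 4.96% of genes were lower. The Ctsg call was lost without Ly6Chi replicate 1 (adjusted p = 0.0501) or Ly6Clo replicate 1 (adjusted p = 0.0879). The Mmp9 call was kept in 1 of 6 fits without 1 library, that without Ly6Chi replicate 3. Its adjusted p was 0.132 without Ly6Chi replicate 1 and 0.131 without Ly6Chi replicate 2, and there was none without any 1 of the Ly6Clo libraries. With edgeR neither passed.

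**Figure D5:**
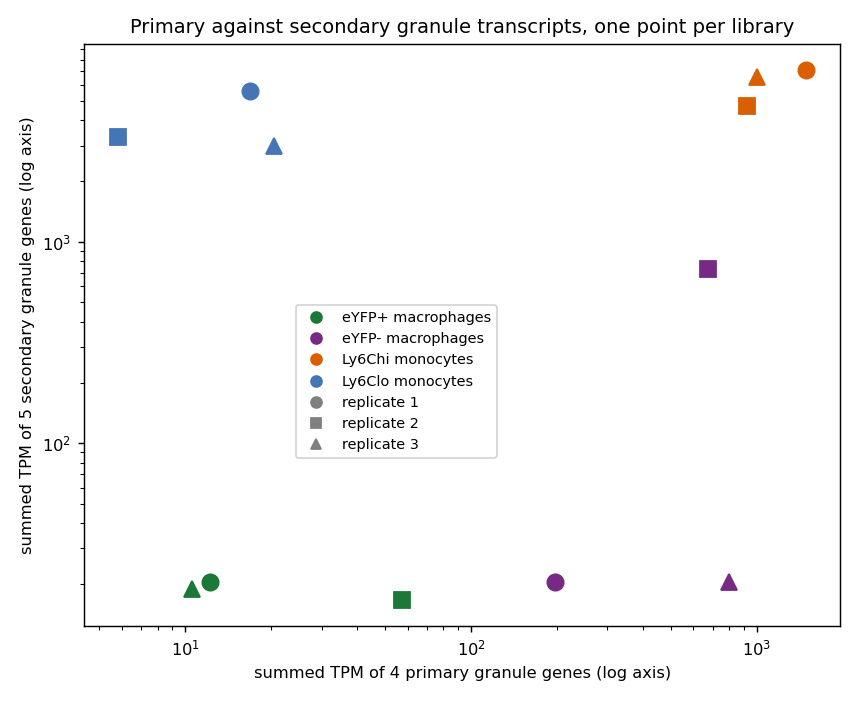
Summed TPM of the 4 primary granule genes (x, log axis) against that of the 5 secondary granule genes (y, log axis), one point per library, colored by group. Ly6Chi monocytes hold both classes, Ly6Clo monocytes the secondary class (2997 to 5574 TPM, against 5.84 to 20.4 TPM of the primary class) and eYFP+ macrophages little of either, while eYFP- replicates 1 and 3 hold the primary class with 20.4 TPM of the secondary class and replicate 2 holds 674 and 731 TPM.

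Against Ly6Chi monocytes, eYFP- macrophages had lower secondary granule transcripts and similar means of Mpo. Mmp8 fell by 7.92 (SE 1.37, adjusted p = 1.21e-07), Camp fell by 5.01 (SE 0.88, adjusted p = 1.9e-07), Ngp fell by 4.86 (SE 0.92, adjusted p = 1.77e-06) and Lcn2 fell by 4.43 (SE 1.09, adjusted p = 0.000401). Of the primary class, Prtn3 was lower, at -1.57 ± 0.50 (adjusted p = 0.00865), a call lost without eYFP- replicate 1 (adjusted p = 0.0681) or Ly6Chi replicate 1 (adjusted p = 0.0689). Mpo had a log2 fold change of -0.01 (95% interval -1.44 to 1.41) and Ctsg one of 0.63 (-1.46 to 2.72), so the intervals allow a difference of more than 2-fold in either direction. Elane was at -3.23 ± 1.70 (adjusted p = 0.153) and Ltf at -3.51 ± 1.87 (adjusted p = 0.161), and each passed under 3 of 10 alternatives, with adjusted p down to 0.000403 for Elane and 0.00444 for Ltf. In total 5 of 10 genes were lower, against 11.1% of tested genes, and 7 of 10 were lower without overlap, against 24.3%. Without eYFP- replicate 2 the genes called lower numbered 7, with Ltf and Mmp9 added, against 24.8% of 21294 genes called in either direction. The Mmp9 call there rests on a pair of eYFP- libraries with 0 counts.

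Against Ly6Clo monocytes, eYFP- macrophages differed in opposite directions by class. Mpo was higher by 5.67 ± 0.73, Elane by 5.48 ± 1.70, Ctsg by 4.56 ± 1.07 and Prtn3 by 3.90 ± 0.51 on the log2 scale, with adjusted p from 3.12e-13 to 0.00749. These were 4 of 4, against 15.4% of tested genes higher. Camp, Ngp, Lcn2, Mmp8 and Mmp9 were lower, with log2 fold changes from -3.77 to -6.61 (adjusted p 2.2e-05 to 0.00311), against 10.8% of tested genes, and Ltf was at -4.29 ± 1.87 (adjusted p = 0.0737), passing under 3 of 10 alternatives and without eYFP- replicate 1 or 2. The libraries did not overlap for any of the 10 genes, as for 34.7% of all tested genes. Without Ly6Clo replicate 2 the count of 9 became 5, because 4 genes then had no adjusted p under the Cook's cutoff of DESeq2. The Elane call was lost without eYFP- replicate 3 (adjusted p = 0.0635).

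The eYFP+ macrophages were lower than Ly6Chi monocytes in 9 of 10 genes, all but Mmp9, against 10.6% of tested genes. Log2 fold changes ran from -3.18 ± 1.07 for Ctsg (adjusted p = 0.0151) to -8.59 ± 0.92 for Ngp (adjusted p = 5.9e-19). The Ctsg call was lost without Ly6Chi replicate 1, eYFP+ replicate 1 or eYFP+ replicate 3 (adjusted p of 0.0748, 0.176 and 0.0734) and with edgeR. Mmp9 was at -1.40 ± 1.89 (adjusted p = 0.693), low in both groups. Against Ly6Clo monocytes, all 5 secondary granule genes and Mmp9 were lower, from -5.43 ± 1.37 for Mmp8 (adjusted p = 0.000561) to -9.31 ± 1.87 for Ltf (adjusted p = 7.54e-06). These 6 genes compare with 12.2% of tested genes. Of 4 primary granule genes 0 passed against Ly6Clo in DESeq2, 0 had an unadjusted p under 0.05 and 0 passed in edgeR, with adjusted p of 0.238 to 0.951 and log2 fold changes of 0.06 to 1.18, both groups being low. Leaving out any 1 Ly6Clo library brought the 6 down to 2 or 3, since 3 or 4 genes then had no adjusted p. These comparisons share their macrophage and monocyte libraries and are not independent of each other.

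Further granule and secreted proteins of neutrophils were counted as well. Of 24 such genes, 14 were lower and 3 higher in eYFP- macrophages than in Ly6Chi monocytes, against 11.1% and 16.3% of all tested genes. Between eYFP+ and eYFP- macrophages 22 had an adjusted p, 3 were lower (1.88% of all tested genes) and 0 higher (1 higher at an unadjusted p under 0.05), with a median log2 fold change of -1.19 that moved to 0.16 without eYFP- replicate 2. With edgeR 1 of the 24 passed. Hp, haptoglobin, which binds free hemoglobin, fell by 2.92 (SE 0.57, adjusted p = 6.74e-05), with 501, 547 and 400 normalized counts in eYFP- and 12.4, 126 and 52.6 in eYFP+ libraries. Ltb4r1, the leukotriene B4 receptor, fell by 2.28 (SE 0.44, adjusted p = 7.99e-05), and Prss57, a serine protease of primary granules, fell by 3.02 (SE 0.76, adjusted p = 0.00705). All 3 were thus raised in each eYFP- library and not in replicate 2 alone. Itgb2l had 165 normalized counts in eYFP- replicate 2 and 0 in replicates 1 and 3, and its adjusted p was 0.0678. Between monocytes, 7 of these 24 genes were higher and 3 lower in Ly6Chi, against 3.66% and 4.96% of all tested genes, and the 10 calls became 5 with edgeR.

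Regulators of granule genes were counted in the same way. With a median log2 fold change of -0.82, 2 of 12 were lower in eYFP+ macrophages, Cebpe, the C/EBP factor of late granulocyte maturation, at -3.85 ± 0.90 (adjusted p = 0.00228), and Myb, a factor of progenitors, at -3.26 ± 0.94 (adjusted p = 0.0315). Of all tested genes 1.88% were lower, and in edgeR 0 of the 12 regulators passed. Without eYFP- replicate 2, 1 of the 12 was lower (median -0.87), beside 2.8% of all tested genes called in either direction. Cebpe had 77.6, 133 and 250 normalized counts in eYFP- and 11.3, 21.0 and 0 in eYFP+ macrophages, against 894 to 1549 in Ly6Chi and 315 to 1754 in Ly6Clo monocytes. Among eYFP- libraries Cebpe was highest in replicate 3, where secondary granule transcripts were low. Of 12 inhibitors of granule proteases (median -0.56) 1 was lower in eYFP+ macrophages, Serpinb1a, which inhibits elastase, proteinase 3 and cathepsin G, at -2.91 ± 0.42 (adjusted p = 7.9e-09). Its 357, 704 and 716 normalized counts in eYFP- and 64.8 to 95.7 in eYFP+ macrophages followed the order of the primary granule genes, replicate 1 being lowest of the eYFP- libraries. Of 14 genes of granule biogenesis and release (median -0.02) 1 was lower, Padi4, which citrullinates histones, at -3.50 ± 0.76 (adjusted p = 0.000772). Padi4 is also a neutrophil marker, and the only one of that list called. With edgeR 1 of the 12 inhibitors passed, and 0 genes passed of the biogenesis list and of the neutrophil markers.

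Over the 12 libraries, the log2 values of the 4 primary granule genes correlated with each other at Pearson's r of 0.81 to 0.96 and those of the 5 secondary granule genes at 0.901 to 0.995. Between the classes r was -0.09 to 0.38. Mmp9 had r of 0.60 to 0.73 with the secondary class and of -0.52 to -0.39 with the primary class. These libraries form 4 groups and share the group differences, so the values describe the pattern only. Among 10943 genes with a mean of at least 50 normalized counts, those most like the primary granule profile were Ms4a3 (r = 0.96), Prss57 (0.93), Thsd1 (0.91), Cdc45 (0.90) and Cox6b2 (0.90). Those most like the secondary granule profile were S100a8 (0.996), Itgb2l (0.99), S100a9 (0.99), Wfdc21 (0.98) and Prkd3 (0.97).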

How the data were processed

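Sorted bone marrow cells gave 12 polyA libraries of amplified full-length cDNA. No molecular identifiers were described, so reads are not independent molecules. According to the study's methods, the authors trimmed and corrected reads, removed ribosomal reads, aligned with segemehl to GRCm39 with Ensembl annotation and deposited featureCounts counts (submitters' notes name bcl2fastq 2.20.0.422). The authors also deposited TPM values, which are length-corrected, and variance-stabilised values, not used here. Symbols came from GENCODE M21 and matched 91.4% of identifiers.

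DESeq2 1.42.0 (R 4.3.3) served as the main test, with 1 fit over all libraries, the group as factor, Wald tests, an adjusted p threshold of 0.05, independent filtering and Cook's cutoff. Normalized counts are counts over the size factor. Alternatives were edgeR 4.0.16, limma 3.58.1 on log2(TPM + 1) or log2(TPM + 0.1), TMM factors, other filters, fewer libraries, a replicate block, and leaving out each library. Scripts were tested on simulated data. Same-numbered libraries deviated together with r over 0.1 in every pair in 0 of 6 comparisons, and the main fit did not pair libraries. That check cannot exclude pairing, since r was 0.149, 0.071 and 0.042 for replicates 1, 2 and 3 of eYFP+ minus eYFP- macrophages. In the other comparisons it ran from -0.148 to 0.057. The deposited column names number the groups of each replicate in a row, and whether these shared a sort or batch is not stated.

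Members and gene lists were chosen with earlier results of these data known. The 10 members are named whatever their values. Of each other list all genes were counted and up to 4 named, those with the lowest adjusted p in eYFP+ minus eYFP- macrophages. Counts of 5 or fewer may have their genes named, and Ly6g, Stfa3 and Ccr3 were named after their values were seen. The neutrophil list shares S100a8, S100a9, Cd177 and Mmp25 with the list of further granule proteins, and the progenitor list shares Ms4a3 with it and Cebpe, Myb and Gfi1 with the regulators. Sequences of proteins were not used here. Not every result of the monocyte marker list is reported here.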

Additional observations from a re-analysis of the deposited data

How the results depend on the processing

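For eYFP+ minus eYFP- macrophages, the 6 members called became 1 with edgeR, 3 on the 6 libraries of the contrast (3 members without an adjusted p), 2 with limma on log2(TPM + 0.1) and 2 with limma on log2(TPM + 1) of unfiltered genes, and 3 to 7 on leaving out 1 library. Of all tested genes, 0.334% were called with edgeR, 3.28% on the 6 libraries, and 1.11% and 0.512% with limma. Without 1 library the share was 1.31 to 2.8%. For Ly6Chi minus Ly6Clo monocytes the 5 became 3 with edgeR, 6 on the 6 libraries of the contrast, 6 with limma on log2(TPM + 1), filtered or not, and 3 to 5 on leaving out 1 library. All-gene shares there were 4.32% with edgeR, 5.92% on the 6 libraries, and 7.71% with filtered and 2.26% with unfiltered limma. They were 6.43 to 11.3% without 1 library. Leaving out 1 library gave 4 to 7 for eYFP- macrophages minus Ly6Chi monocytes, 5 to 10 for eYFP- macrophages minus Ly6Clo monocytes, 8 to 9 for eYFP+ macrophages minus Ly6Chi monocytes and 2 to 6 for eYFP+ macrophages minus Ly6Clo monocytes. In the same order, the shares of all tested genes were 14.5 to 24.8%, 20.4 to 28.5%, 15.7 to 25.1% and 22.5 to 28.2%. The cause of the changing counts was not tested. All genes called in eYFP+ minus eYFP- macrophages numbered 439 with DESeq2 and 64 with edgeR. With the replicate number as a block, 4 members were called in eYFP+ minus eYFP- macrophages and 4 in Ly6Chi minus Ly6Clo monocytes, and the other counts did not change. Of all tested genes, 3% and 6.34% were called in this pair of comparisons under the block. Whether same-numbered libraries shared a mouse, sort or batch is not stated.

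Of 600 member values under alternatives, 553 kept direction and side of the threshold, 28 lost the threshold, 14 gained it and 5 changed sign. Of 360 values with 1 library left out these were 319, 21, 6 and 14. Values without an adjusted p, of which direction alone was compared, made up 3 of the 553 and 32 of the 319. The sign changes were of values that had not passed. Mmp9 in eYFP+ minus eYFP- macrophages was 0.89 with limma on log2(TPM + 0.1). Prtn3 in eYFP+ macrophages minus Ly6Clo monocytes was -0.032 under the block, -0.035 with limma on log2(TPM + 1), filtered or not, and -0.081 with log2(TPM + 0.1). With 1 library left out, log2 fold changes in eYFP+ minus eYFP- macrophages ran from -5.60 to 0.96 for Ltf, -1.72 to 2.85 for Mmp8 and -1.26 to 7.57 for Mmp9, the last without meaning as a size because both remaining eYFP- libraries had 0 counts. In eYFP+ macrophages minus Ly6Clo monocytes they ran from -0.69 to 0.41 for Prtn3, -0.20 to 1.62 for Mpo and -0.65 to 1.66 for Ctsg. They ran from -0.25 to 1.19 for Lcn2 in Ly6Chi minus Ly6Clo monocytes, from -0.41 to 0.37 for Mpo and -8.97 to 1.04 for Mmp9 in eYFP- macrophages minus Ly6Chi monocytes, and from -1.90 to 0.36 for Mmp9 in eYFP+ macrophages minus Ly6Chi monocytes. Prtn3 passed in eYFP+ minus eYFP- macrophages under 10 of 10 alternatives and without any 1 library, Mpo under 9 of 10.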

Other observations

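Ctsg lies beside Mcpt8, a protease of basophils, on chromosome 14. Mcpt8 had 1529.9, 2237 and 3258 normalized counts in eYFP- replicates 1, 2 and 3 and 0, 2.86 and 2.22 in eYFP+ macrophages, and fell by 10.42 (SE 1.86, adjusted p = 9.23e-06 in DESeq2). Without eYFP- replicate 2, 0 genes of its marker list were called and 4 of 10 had an adjusted p. With edgeR 0 of the list passed. In Ly6Chi monocytes, where Ctsg was at 610 to 1046 normalized counts, Mcpt8 had 6.36, 1.21 and 646, so the neighbouring genes did not share 1 pattern over the groups.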
